A study of Mus musculus with 32 samples.

Results

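Atxn1, Rftn1, Septin9, Etv6, Pard3b, Sema6d and Ralgapa2 are 7 mouse genes whose loci held many chromatin regions with peaks in migratory and not in resident dendritic cells (DC) of the lymph node. They were chosen by an earlier comparison of migratory with resident DC in these same libraries, so these differences are described below and not tested. Gained, lost and change on migration stand here for migratory against resident DC of the node, since no skin DC from before migration were used. Their regions are the consensus regions that lie in a gene body of the 7 or, if intergenic, have a gene of the 7 as the nearest one within 50 kb. This gave 367 of 90465 regions, of which 316 lay in gene bodies and 51 outside. Etv6 had 95 regions, Rftn1 and Septin9 60 each, Atxn1 55, Sema6d 38, Pard3b 31 and Ralgapa2 28. No region of the 7 was assigned to a further gene.

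Open chromatin of DC from skin-draining lymph nodes was mapped with Omni-ATAC-seq, an assay that uses a transposase to tag accessible DNA. The groups, given as numbers of libraries, were migratory migDC1 (4) and resident cDC1 (6), migratory migDC2 (6) and resident cDC2 (6), and DN migDC (6), a migratory subset whose abbreviation the labels do not spell out. All 28 of these libraries came from mice with a floxed Ifngr1 gene, the IFN-γ receptor chain, that were CD11cCREpos/IFNgr1flfl or CD11cCREneg/IFNgr1flfl, with 3 libraries of each genotype per subset and 2 of each for migDC1. A further 4 libraries were migDC2 from IFNgr1-/- mice (2) and WT mice (2), called germline KO and germline WT here. The CD11c promoter drives Cre in DC and in some other CD11c-expressing leukocytes, and the labels give no age, sex or number of animals. Replicates are separate samples by their labels, but whether they came from separate mice is not stated, so the spread between them may be partly technical.

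DC of the skin mature, leave the tissue through lymphatic vessels and enter the draining node, a step that needs changes in the cytoskeleton, in membrane traffic and in gene regulation. Resident cDC1 and cDC2 develop inside the node, and migDC1 and migDC2 are the migratory cells of the same lineages. The 7 genes fall into 3 kinds. Septin9, a GTP-binding protein of the septin cytoskeleton, and Pard3b, a relative of the cell polarity scaffold Par3, act on cell shape. Rftn1 (raftlin, a protein of membrane rafts), Sema6d (a transmembrane semaphorin that binds plexin-A receptors) and Ralgapa2 (the catalytic subunit of a complex that switches off the small GTPases RalA and RalB) act at membranes. Atxn1, a partner of the repressor Capicua, and Etv6, a repressor of the ETS family, act on transcription.

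Most listed promoters of these genes had peaks in resident and migratory libraries alike. RefSeq (GRCm38.p6, the coordinates of mm10) lists 10 transcription starts for 6 of the genes, and 7 of the 10 lay in regions with a peak in every one of the 32 libraries. The promoters printed are those of Rftn1, Pard3b and an internal start of Septin9, all in such always-called regions, and the downstream start of Sema6d, which lay in no region. Each is the 250 bases before the start, 5′ to 3′ on the gene's strand, and capitals mark matches on either strand to AP-1 (TGANTCA), NF-kB (GGGNNTTTC), ETS (GAGGAA), IRF (GAAANNGAA), RUNX (TGTGGT) or E-box (CACGTG) letters.
Rftn1, chr17:50190498-50190747, minus strand: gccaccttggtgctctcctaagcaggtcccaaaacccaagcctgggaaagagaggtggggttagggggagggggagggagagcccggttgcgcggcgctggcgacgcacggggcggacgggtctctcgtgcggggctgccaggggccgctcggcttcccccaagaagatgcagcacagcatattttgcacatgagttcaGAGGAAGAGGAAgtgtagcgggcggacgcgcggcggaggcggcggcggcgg
Pard3b, chr1:61638574-61638823, plus strand: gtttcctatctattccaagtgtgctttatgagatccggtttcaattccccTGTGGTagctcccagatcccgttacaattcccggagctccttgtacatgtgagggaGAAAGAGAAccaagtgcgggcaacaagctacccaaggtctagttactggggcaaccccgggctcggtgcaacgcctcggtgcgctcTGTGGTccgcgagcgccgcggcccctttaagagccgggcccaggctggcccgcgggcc
Septin9, chr11:117331465-117331714, plus strand: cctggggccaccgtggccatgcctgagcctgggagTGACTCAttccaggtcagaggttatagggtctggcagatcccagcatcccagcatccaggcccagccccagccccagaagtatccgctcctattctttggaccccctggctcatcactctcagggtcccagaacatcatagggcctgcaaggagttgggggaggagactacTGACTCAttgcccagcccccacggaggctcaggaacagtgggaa
Sema6d, chr2:124653331-124653580, plus strand: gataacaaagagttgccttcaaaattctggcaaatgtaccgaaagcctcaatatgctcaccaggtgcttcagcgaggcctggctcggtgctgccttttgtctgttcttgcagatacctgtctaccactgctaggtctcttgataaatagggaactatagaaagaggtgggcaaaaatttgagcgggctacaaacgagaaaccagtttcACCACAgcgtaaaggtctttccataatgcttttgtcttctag

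The Rftn1 promoter held 2 adjoining ETS matches, a match found in 23.3% of all 32851 listed promoter windows of this length. The Septin9 promoter held 2 AP-1 matches (6.75% of windows have at least 1), and that of Pard3b held 2 RUNX matches (14% of windows) and 1 IRF match (7.13%). The Sema6d window held 1 RUNX match, on the reverse strand. No window printed held an NF-kB match (3.72% of windows). These matches are descriptions of the letters and not binding sites.

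At Septin9, the start at position 117199661 differed from the other 3. Its region chr11:117199652-117200107 had a peak in none of 4 migDC1 and 1 of 6 cDC1 libraries, in 3 of 6 migDC2 and none of 6 cDC2 libraries, and in 2 of 6 DN migDC libraries. Neither listed start of Sema6d overlapped a region: the nearest region was 113 kb from the upstream start and 2.23 kb from the downstream start. No regions gained in either lineage lay within 1 kb of a listed start, and 130 of the 145 gained regions of these 6 genes lay beyond 10 kb, with a median distance of 74.1 kb. Regions called in all 28 libraries had a median distance of 67.0 kb, and 6 of 61 lay within 1 kb.

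A region counted as called in a library when it shared 50% or more of its own length, or of a deposited peak's length, with that peak. It counted as gained in a lineage when it was called in at least 75% of the migratory and at most 25% of the resident libraries of that lineage, and as lost in the reverse case. These migration contrasts overlap with the values that chose the genes, so the shares are given beside those of all regions and nothing is read from them. The same holds for the counts per library given below for each gene. How many other genes separate migratory from resident libraries as fully is not given here. In the cDC1 lineage, 121 of the 367 regions (33%) were gained, against a background of 11.8% of all regions, and 10 were lost, against 14%. In the cDC2 lineage, 150 (40.9%) were gained, against 13.9%, and 1 was lost, against 1.73%. Both lineages gained 90 regions in common (24.5%), against 6.97%, while 31 were gained in the cDC1 lineage only and 60 in the cDC2 lineage only.

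Of the 367 regions, 53 (14.4%) were called in all 16 migratory and in none of the 12 resident libraries, against 3.55% of all regions. Atxn1 had 15 of them, Ralgapa2 11, Rftn1 7, Septin9 and Sema6d 6 each, Pard3b 5 and Etv6 3. In the pooled exact test that chose the genes, 169 of their regions were more often called in migratory DC and 6 less often, and 25% of all 61445 regions tested were more often called. By that count Atxn1 had 34 regions, Rftn1 27, Septin9 26, Etv6 24, Pard3b 23, Sema6d 18 and Ralgapa2 17. The 7 are not simply the highest: 13 other genes had 17 or more, from Ankrd33b with 24 to Slc22a23, Tmcc3 and Zfp366 with 18 each. Just under the lowest of the 7 came Cyria, Phlpp1 and Runx2 with 16 each. The filter of that test left out 80 of the 367 regions, all of them missing in fewer than 3 of the 28 libraries. With every list reduced to its 38571 strongest peaks, 91 regions (24.8%) were gained in the cDC1 lineage, against 9.64% of all regions, and 93 (25.3%) in the cDC2 lineage, against 7.19%.

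**Figure D1:**
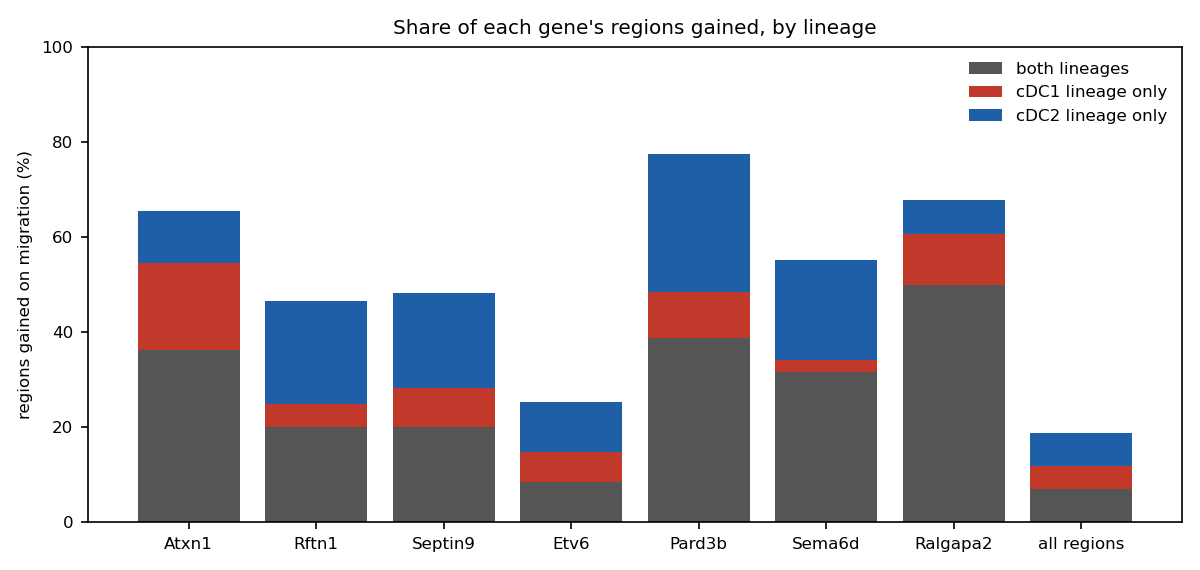
Percent of the regions of each gene, and of all regions, that were gained on migration in both lineages, in the cDC1 lineage only or in the cDC2 lineage only. Ralgapa2 has the largest share gained in both (50%), Rftn1, Septin9, Etv6, Pard3b and Sema6d more regions gained in the cDC2 than in the cDC1 lineage, and Etv6 the smallest share in each lineage.

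Septin9 spans chr11:117199661-117362325. Of its 60 regions, migDC1 libraries called 28, 38, 40 and 42, against a lowest, median and highest count of 18, 23.5 and 28 in cDC1 libraries. migDC2 libraries called 42, 48.5 and 56 regions (lowest, median, highest), against 15, 19 and 27 in cDC2 libraries, and DN migDC libraries 35, 41 and 54. The lowest migDC1 library met the highest cDC1 library at 28, and the 2 groups of the cDC2 lineage did not overlap. Septin9 gained 17 regions in the cDC1 lineage and 24 in the cDC2 lineage, 12 of them shared, and lost 3 in the cDC1 lineage.

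The Septin9 gains were packed into the middle of the gene. A chain was defined as gained regions (in either lineage) whose midpoints follow each other within 10 kb. The 24 gained regions of chr11:117239272-117324601 formed a single chain of 85.3 kb that held 36 regions in all, between the start at position 117199661 and the internal start whose sequence is printed above. Another listed start, at position 117266246, lay inside the chain in a region called in all 32 libraries. The region chr11:117271815-117272654 was called in all 16 migratory libraries, in no resident library and in all 4 germline migDC2 libraries. It ranked at 22.2% of the list in migDC1, 26.9% in migDC2 and 29.2% in DN migDC libraries (medians, where 0 is the strongest peak and 100 the weakest). The region chr11:117250051-117250915 had the same calls, with ranks of 27.9%, 25.1% and 32.6%. The distal region chr11:117396959-117397505 was called in no migDC1 and 3 of 6 cDC1 libraries, in no migDC2 and 4 of 6 cDC2 libraries, and in 4 of 6 DN migDC libraries.

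Pard3b is the longest of the genes, at chr1:61638667-62642284. Of its 31 regions, migDC1 libraries called 12, 21, 21 and 22, against 3 to 6 (median 4.5) in cDC1 libraries. migDC2 libraries called 24 to 28 (median 27), against 4 to 6 (median 5) in cDC2 libraries, and DN migDC libraries 23 to 28 (median 24.5). Every migratory library lay above every resident one, in the contrast that chose the gene. The library with 12 is the Cre-negative migDC1 library with the shortest list of its subset, 45052 peaks. Pard3b gained 15 regions in the cDC1 lineage and 21 in the cDC2 lineage, lost none in either, and 13 gained regions followed each other without any other region between them.

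The Pard3b regions chr1:62504092-62505106, chr1:62522406-62523323 and chr1:62548396-62549196, all in the part of the gene away from the listed start, were called in every migratory and no resident library and in all 4 germline libraries. Their median ranks were 19.6%, 22.3% and 29.0% in migDC2 libraries. A tight chain of 5 gained regions at chr1:62546637-62552779 spanned 6.14 kb. Of these, chr1:62550302-62551106 and chr1:62551364-62551875 were called in all 6 migDC2 and none of the 4 migDC1 libraries, as were chr1:61649073-61649526 and chr1:62175134-62175813. Conversely chr1:62198547-62198821 was called in all 4 migDC1 libraries and no other library.

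**Figure D2:**
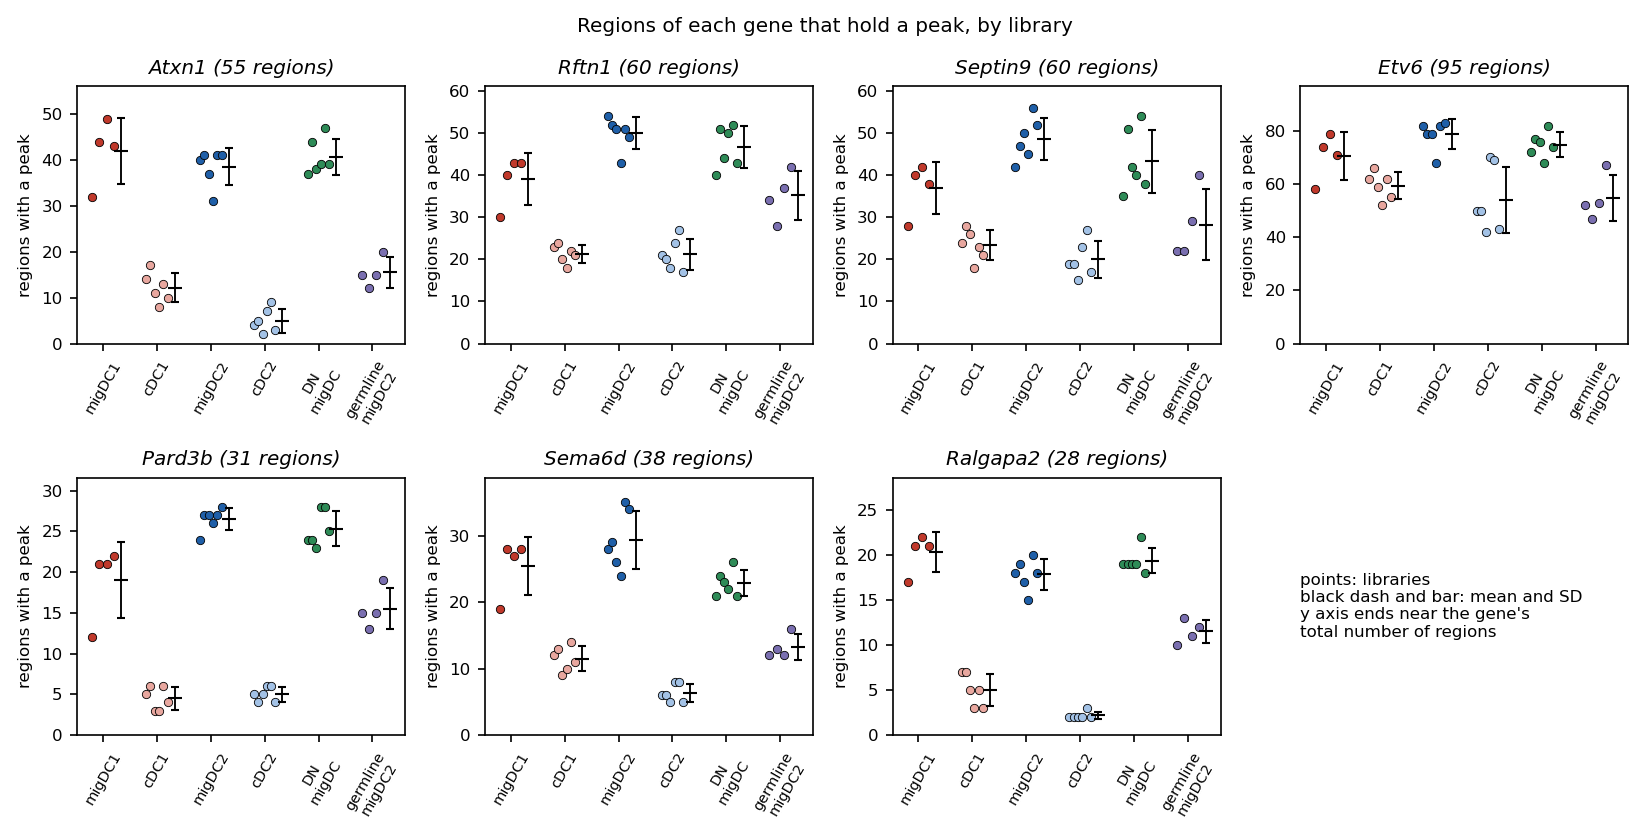
Number of regions with a peak (y axis) in each library (points) by subset, with the mean and SD beside them, for each of the 7 genes. Migratory subsets stand left of the resident subset of their lineage, in the contrast that chose the genes. In Atxn1, Rftn1, Pard3b, Sema6d and Ralgapa2 the migratory and resident libraries of the floxed cohort do not overlap within a lineage, and the germline migDC2 libraries, whose lists are shorter than those of the other migDC2 libraries, lie below the other migDC2 libraries.

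Rftn1 lies at chr17:49993258-50190497 on the minus strand. Of its 60 regions, migDC1 libraries called 30, 40, 43 and 43, against 18 to 24 (median 21.5) in cDC1 libraries. migDC2 libraries called 43 to 54 (median 51), against 17 to 27 (median 20.5) in cDC2 libraries, and DN migDC libraries 40 to 52 (median 47). The groups of each lineage did not overlap. Rftn1 gained 15 regions in the cDC1 lineage and 25 in the cDC2 lineage with 12 in common, and lost none. It also had 15 regions called in all 28 libraries of the floxed cohort.

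The Rftn1 regions chr17:50047937-50049051, chr17:50149740-50152398, chr17:50089942-50090931 and chr17:50029916-50031349 were called in every migratory and no resident library and in all 4 germline libraries, with median migDC2 ranks between 22.3% and 30.3%. A chain of 8 gained regions ran over 41.4 kb at chr17:50012006-50053425, in the part of the gene away from the promoter. Other Rftn1 regions separated migDC2 from migDC1. The regions chr17:50066382-50067191, chr17:50110520-50111441 and chr17:50133895-50135222 were called in all 6 migDC2 and no migDC1 library, and in 1, 3 and 5 of the 6 DN migDC libraries.

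Sema6d lies at chr2:124089943-124667789. Of its 38 regions, migDC1 libraries called 19, 27, 28 and 28, against 9 to 14 (median 11.5) in cDC1 libraries. migDC2 libraries called 24 to 35 (median 28.5), against 5 to 8 (median 6) in cDC2 libraries, and DN migDC libraries called 21 to 26 (median 22.5). Migratory and resident libraries did not overlap. Sema6d gained 13 regions in the cDC1 lineage and 20 in the cDC2 lineage, 12 in common, and lost 2 in the cDC1 lineage, among them chr2:124220534-124221013 (0 of 4 migDC1 and 5 of 6 cDC1 libraries).

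Of 4 chains of gained Sema6d regions, 3 lay upstream of the downstream start printed above, which itself lay in no region. Chains of 6 and 4 gained regions were the longest of these, at chr2:124608643-124626347 and chr2:124638142-124648379 and the fourth chain, of 3, lay beyond the gene at chr2:124704183-124711691. In that chain chr2:124709351-124710564 was called in all migratory, no resident and all 4 germline libraries and ranked at 10.1% in migDC1, 14.5% in migDC2 and 14.9% in DN migDC libraries. Within the gene, chr2:124647134-124648379 had the same calls and ranks of 15.4%, 16.4% and 15.9%.

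Ralgapa2 lies at chr2:146239876-146512254 on the minus strand. Of its 28 regions, migDC1 libraries called 17, 21, 21 and 22, against 3 to 7 (median 5) in cDC1 libraries. migDC2 libraries called 15 to 20 (median 18), against 2 or 3 (median 2) in cDC2 libraries, and DN migDC libraries 18 to 22 (median 19). The 2 regions called in every cDC2 library were the promoter region chr2:146511303-146512741, called in all 32 libraries, and the distal region chr2:146516944-146517249, called in all 6 cDC2 libraries and in no other library. Ralgapa2 gained 17 regions in the cDC1 lineage and 16 in the cDC2 lineage, 14 of them in both, and lost 1 in each.

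Both Ralgapa2 chains of gained regions, of 8 and 4, lay in the part of the gene away from the promoter. Other gained regions lay between the chains, between the chains and the promoter or outside the gene. The chain of 8 at chr2:146254166-146277881 held no region that was not gained. In it, chr2:146272174-146273235 was called in every migratory and no resident library and in all 4 germline libraries, with ranks of 13.7% in migDC1, 14.2% in migDC2 and 13.8% in DN migDC libraries. chr2:146442979-146443876 had the same calls and ranks of 11%, 16.9% and 13.1%.

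Atxn1 lies at chr13:45549755-45964991. Of its 55 regions, migDC1 libraries called 32, 43, 44 and 49, against 8 to 17 (median 12) in cDC1 libraries. migDC2 libraries called 31 to 41 (median 40.5), against 2 to 9 (median 4.5) in cDC2 libraries, and DN migDC libraries 37 to 47 (median 39). The groups did not overlap. Atxn1 gained 30 regions in the cDC1 lineage and 26 in the cDC2 lineage, 20 of them in both, and lost none. A single region was called in all 28 libraries of the floxed cohort: it was 3295 bp wide and covered the gene end with the higher coordinate.

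Gained Atxn1 regions formed chains of 10 at chr13:45677978-45706064, where every region was gained, and of 7 at chr13:45718458-45735866. The region chr13:45718458-45719404 was called in all 16 migratory, no resident and all 4 germline libraries, and ranked at 13.1% in migDC1, 24.3% in migDC2 and 26% in DN migDC libraries. chr13:45837388-45838209 and chr13:45677978-45679483 had the same calls, with migDC1 ranks of 25.6% and 27.2%. In the second chain chr13:45721705-45722058 was called in all 4 migDC1, no migDC2, no resident and 1 of 6 DN migDC libraries. The region chr13:45910853-45911442 was called in 5 of 6 DN migDC libraries and in no other library.

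Etv6 lies at chr6:134035700-134270158 and differed from the rest in how much of it was open in resident cells. Of its 95 regions, 30 were called in all 28 libraries of the floxed cohort. migDC1 libraries called 58, 71, 74 and 79 regions, against 52 to 66 (median 60.5) in cDC1 libraries, so that the lowest migDC1 library overlapped with cDC1. migDC2 libraries called 68 to 83 (median 80.5), against 42 to 70 (median 50) in cDC2 libraries, also with an overlap, and DN migDC libraries 68 to 82 (median 75). Etv6 gained 14 regions (14.7%) in the cDC1 lineage and 18 (18.9%) in the cDC2 lineage, against 11.8% and 13.9% of all regions, and lost 4 in the cDC1 lineage.

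Some Etv6 gains were strong peaks. The region chr6:134214539-134215781 was called in all migratory, no resident and all 4 germline libraries, with ranks of 14.2% in migDC1, 17.4% in migDC2 and 14.9% in DN migDC libraries. chr6:134153920-134154765 followed with 16%, 21.6% and 22.6%. Among regions that went the other way, chr6:134170932-134171703 was called in no migDC1 and 5 of 6 cDC1 libraries, and in no migDC2 and 3 of 6 cDC2 libraries.

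**Figure D3:**
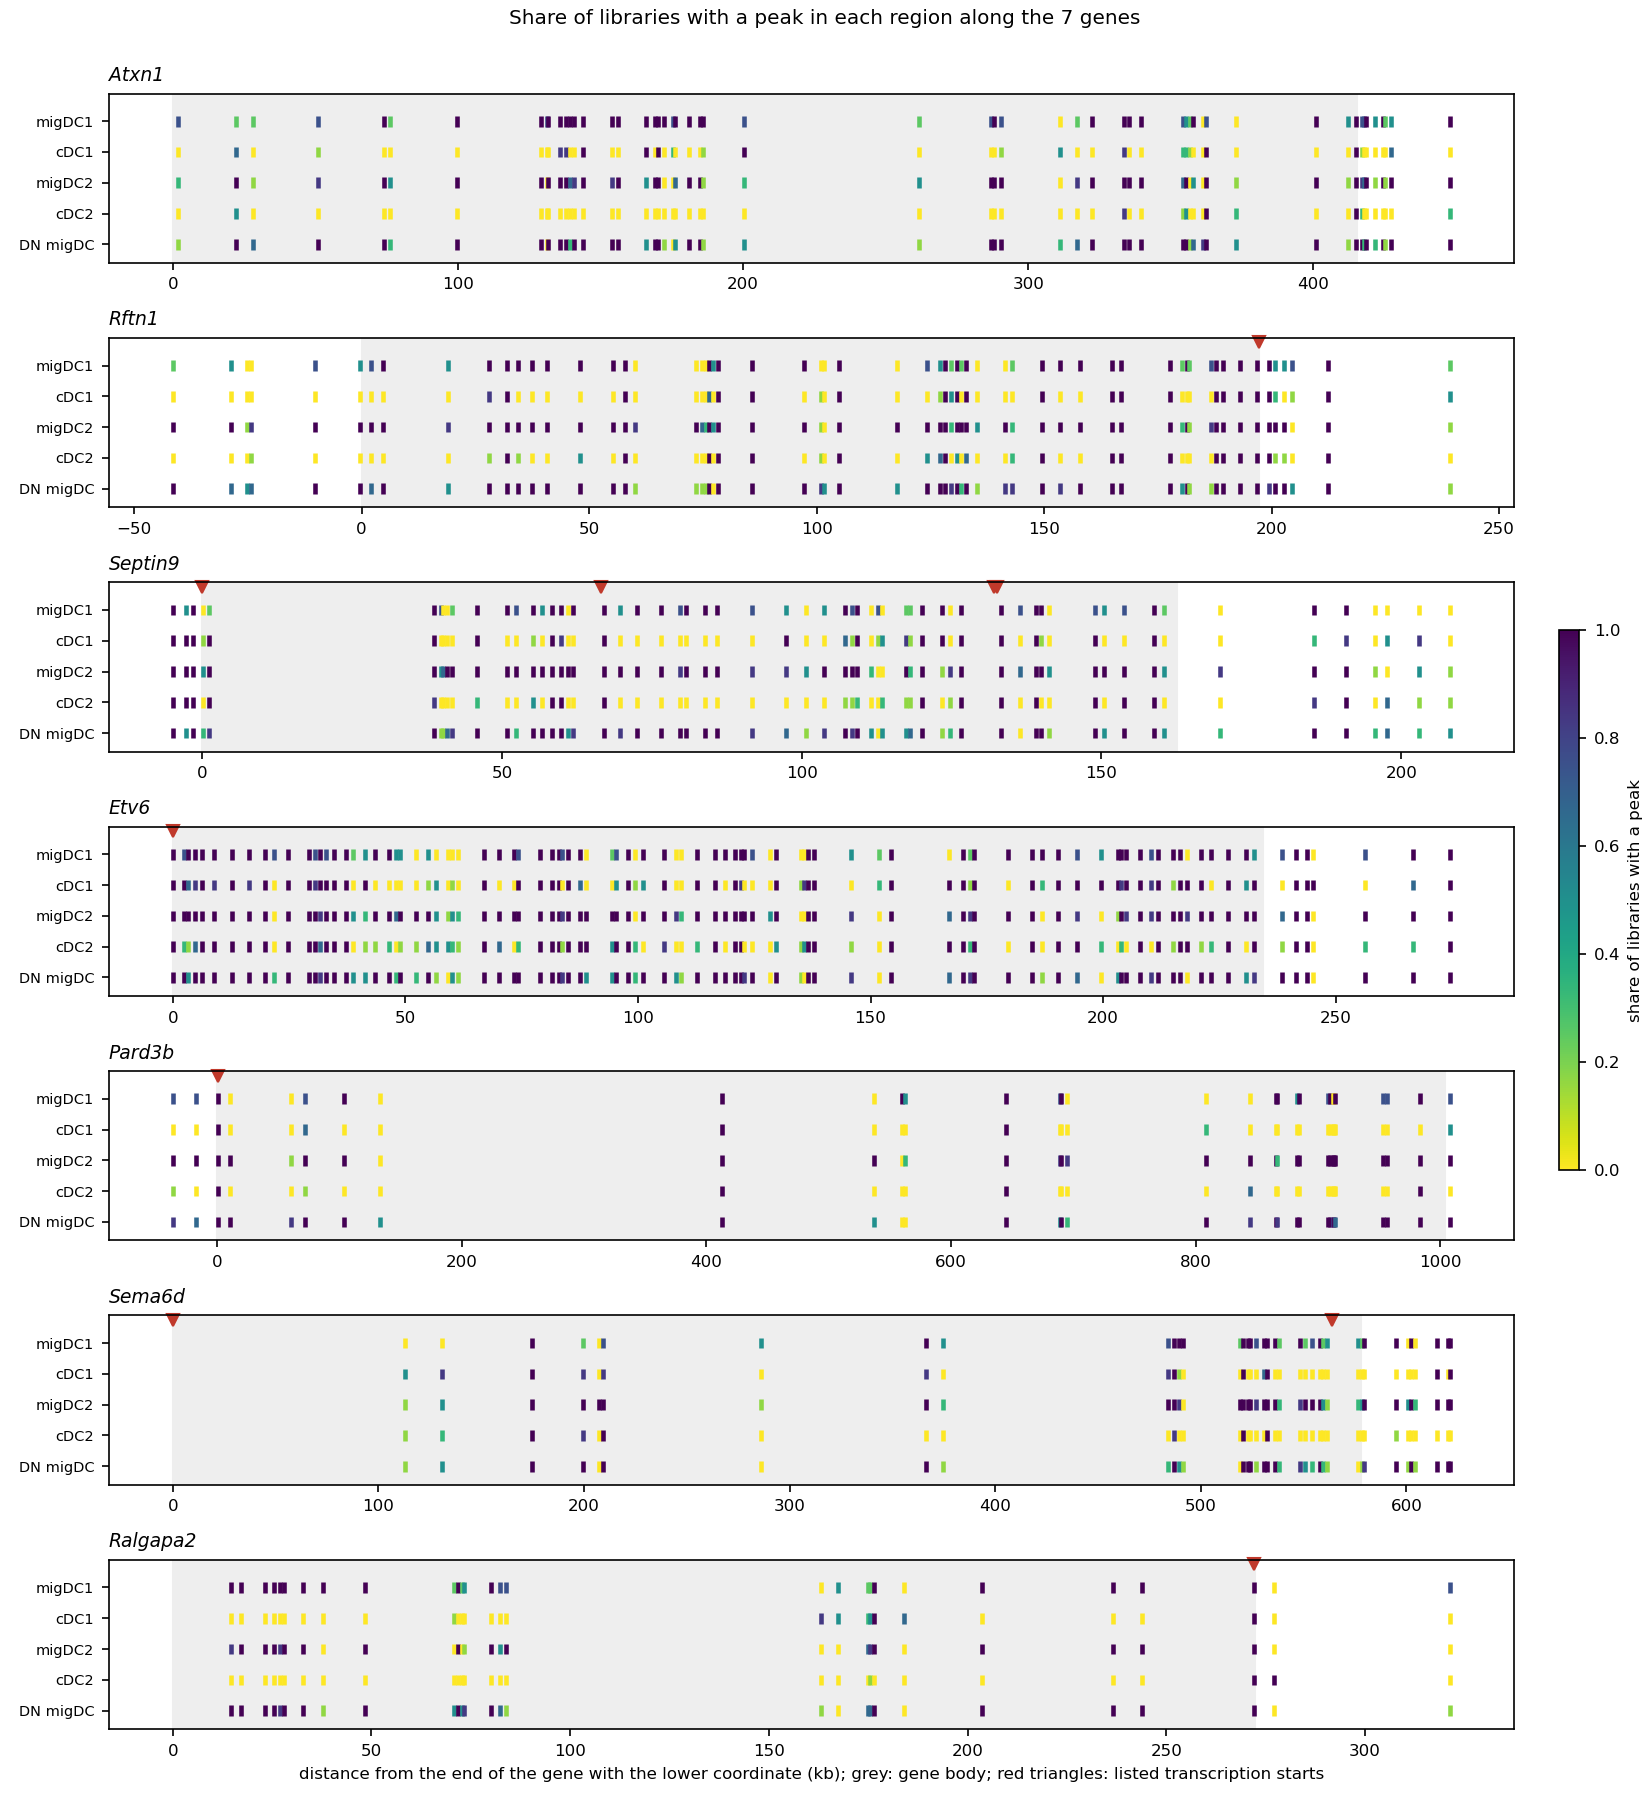
Each region of the 7 genes as a tick at its distance (x axis, kb) from the gene end with the lower coordinate, coloured by the share of libraries with a peak, with 1 row per subset. Ticks that are dark in the migratory rows and light in the cDC1 and cDC2 rows are gained regions. They run in blocks in Atxn1, Septin9 and Ralgapa2, while the dark columns at most listed starts (red triangles) cross all rows.

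Over the 7 genes, 118 of the 181 regions gained in either lineage (65.2%) stood in 20 chains of at least 3, a share not given here for other genes. The largest chain held 24 gained regions in Septin9, 10 in Atxn1, 8 in Ralgapa2 and Rftn1, 7 in Etv6, 6 in Sema6d and 5 in Pard3b. The longest run of gained regions with no other region between was 13 in Pard3b, 11 in Atxn1, 9 in Septin9 and Ralgapa2, 7 in Rftn1, 4 in Sema6d and 2 in Etv6. Over all 515 genes with 20 or more regions, the median longest run was 2 and the 90th percentile 4. For the largest chain the median was 2 and the 90th percentile 5. The 7 genes were chosen for many gained regions, and the length of a run or chain is not independent of that. The median gene of the 515 had 20.8% of its regions gained in either lineage, against 25.3% in Etv6 and between 46.7% and 77.4% in the other 6. The median distance between neighbouring gained regions was 4.20 kb in Atxn1, 3.50 kb in Septin9, 23.2 kb in Pard3b, 5.46 kb in Ralgapa2 and 5.27 kb in Sema6d, compared with 3.14, 2.33, 20.1, 4.88 and 3.24 kb between neighbouring regions of any kind. In Etv6 and Rftn1 these distances were 7.49 and 7.33 kb, compared with 2.42 and 2.72 kb. Gained regions, being a part of all regions, thus lay farther apart than regions of any kind in each of the 7 genes. Over the 515 genes the medians were 15.5 kb and 3.88 kb.

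Gained regions were narrower and ranked lower than always-called ones, a difference that the definitions favour. Always-called regions had to hold a peak in all 28 libraries, while gained ones had to lack it in most resident libraries of a lineage. Over all genes the median widths were 518 bp for gained and 1255 bp for always-called regions. The 181 had a median width of 621 bp, against 1248.5 bp for the 62 regions of these genes called in all 28 libraries. Their median rank within the list was 53.0% in migDC1, 53.9% in migDC2 and 54.1% in DN migDC libraries (medians over libraries). All 16902 gained regions ranked at 59.8%, 60.6% and 61.1%. The always-called regions of the 7 genes ranked at 26.6%, 20.7% and 23.4%, close to the 24.0%, 21% and 21.6% of all such regions. Ranks are places within each library's own list, so they show no change between libraries.

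**Figure D4:**
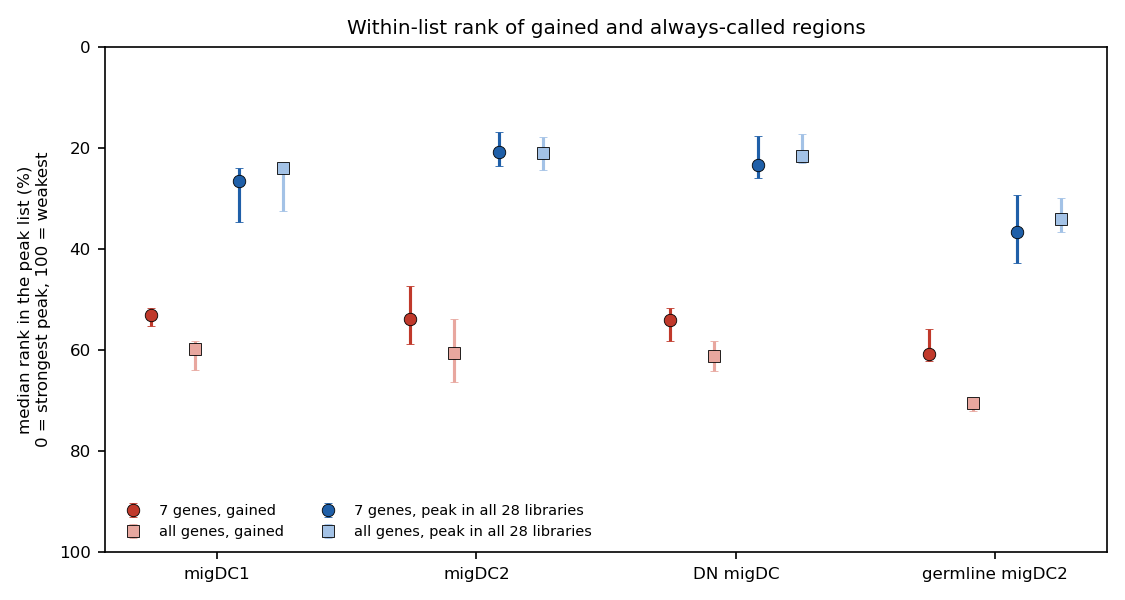
Median rank within the peak list (y axis, percent, strongest at the top) of gained regions and of regions called in all 28 libraries, for the 7 genes and for all genes, with the median over libraries as a point and the lowest and highest library as a bar. Gained regions of the 7 genes rank above gained regions at large in each of the 4 groups and below always-called regions.

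The 4 germline migDC2 libraries took no part in the test that chose the genes, although their peaks helped to define the regions. They called 61 and 107 (germline KO) and 69 and 76 (germline WT) of the 150 regions gained in the cDC2 lineage. The median over the 4 was 48.3%, against 34.8% of all 12540 regions gained in the cDC2 lineage. These libraries had 32705 to 42499 peaks, compared with 54704 to 74361 in the other migDC2 libraries. When every list was reduced to its 32705 strongest peaks, the germline libraries called a median of 87.3% of the 79 regions of these genes still gained, and 86.5% of all regions still gained, so the excess over other genes was not seen at equal list length. By gene, with full lists, the median was highest in Ralgapa2 (65.6%) and Rftn1 (60%) and lowest in Septin9 (37.5%).

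In Septin9 the germline libraries ranged most widely, with 6 and 20 of 24 gained regions in germline KO and 5 and 12 in germline WT libraries. Of the 53 regions called in every migratory and no resident library, all 4 germline libraries called 32 (60.4%), against 55.6% of the 3212 such regions in the genome. With 2 libraries a genotype, the smallest two-sided exact p is above 0.05, and no test between germline KO and germline WT was made.

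**Figure D5:**
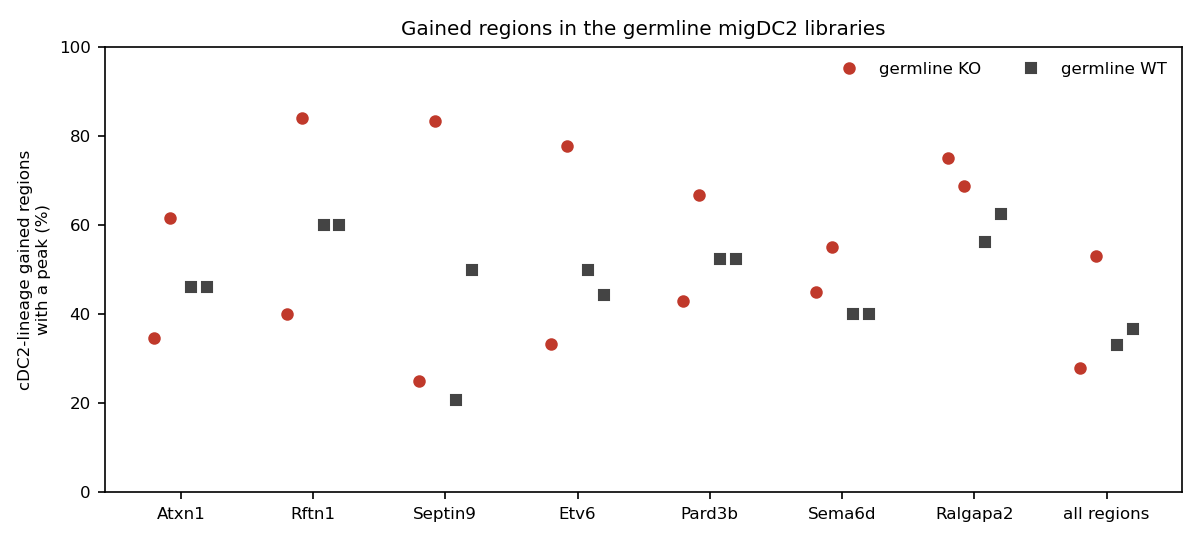
Percent of the regions gained in the cDC2 lineage that had a peak in each of the 2 germline KO (circles) and 2 germline WT (squares) migDC2 libraries, by gene and for all regions. The genotypes overlap in every gene but Sema6d and Ralgapa2, where the KO libraries lie at 45.0% and 55.0% against 40%, and at 75% and 68.8% against 56.2% and 62.5%.

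No difference between the floxed genotypes was detectable at the 7 genes. Cre-positive and Cre-negative libraries were compared by an exact conditional test with subset as strata, two-sided, with Benjamini-Hochberg adjustment over all 61445 tested regions. None of the 287 tested regions of the 7 genes was called, none had an unadjusted p under 0.05, and the smallest exact p was 0.2. Over all regions 0 were called (0%) and 170 had an unadjusted p under 0.05. Across the 367 regions, Cre-positive libraries called 266 and 268 in migDC1, against 196 and 283 in Cre-negative ones. In migDC2 the counts were 252, 294 and 305 in Cre-positive and 287, 288 and 312 in Cre-negative libraries, and in DN migDC 258, 266 and 290 against 248, 265 and 311. In cDC1 they were 112, 125 and 161 against 133, 145 and 147, and in cDC2 89, 107 and 149 against 91, 106 and 140. The genotypes overlapped in each subset.

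A score per gene, the percent of its regions called minus the percent of all regions called in the same library, was compared in the same strata by exact permutation over 2199 genes with 10 or more regions. The difference farthest from 0 among the 7 was 4.39 percentage points, in Pard3b, with scores of -6.45 ± 31.3 in Cre-positive and -10.8 ± 29.1 in Cre-negative libraries (SD, n = 14 each, exact permutation p = 0.0611, adjusted p = 0.963), and 3 of the 2199 genes were called, none of the 7. Peaks do not show whether the floxed Ifngr1 allele was deleted: of 16 regions at Ifngr1, 10 could be tested and the smallest exact p was 0.4.

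Resident cDC2 and cDC1 differed at 16 regions of the 7 genes. By the exact test with genotype as strata and adjustment over 31371 regions, 4 of the 77 tested regions of the 7 genes (5.19%) were more often called in cDC2, against 2.16% of all tested regions, and 12 (15.6%) less often, against 13.4%. All 16 were called in 6 of 6 libraries of the higher subset and 0 of 6 of the other, with an exact p = 0.005, the smallest the strata allow, and an adjusted p = 0.0321. The 4 that were higher in cDC2 were chr1:62621305-62622312 in Pard3b, chr2:146516944-146517249 near Ralgapa2, chr6:134124338-134124798 in Etv6 and chr11:117352974-117353926 in Septin9. Under the stricter signal threshold the Ralgapa2 and Etv6 regions of these 4 lost their call (exact p = 0.2, adjusted p = 0.303 each). In all, 8 of the 7 genes' regions were then called, beside 15.1% of all 21794 tested regions. Of the 12 that were lower in cDC2, Atxn1 had 4, Etv6 3, Septin9 and Sema6d 2 each and Ralgapa2 1, and Rftn1 and Pard3b had none.

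List length bears on this split, since cDC2 lists held a median of 46846.5 peaks and cDC1 lists 64265. With every list reduced to the 38571 strongest peaks, 12 regions of the 7 genes were higher and 10 lower in cDC2. Over all 17525 regions then tested, 3614 were higher and 4488 lower (46.2% called), instead of 677 and 4202 of 31371. Of the 16 regions, 10 were called in the same direction at equal list length. The count was 25 without cDC1 Cre-negative replicate 2 and 30 without cDC1 Cre-positive replicate 2, where the share of all regions called is not given here.

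The change on migration was then compared between the lineages, as the difference of migDC1 minus cDC1 and migDC2 minus cDC2 shares, by exact permutation of the lineage labels within migratory and within resident libraries. Of 266 tested regions of the 7 genes, 10 (3.76%) had a lower signed difference, cDC1 minus cDC2 lineage (5.64% of all 57067 tested regions), and 2 (0.752%) a higher one (0.519%). A lower value can come from a smaller gain or a larger loss in the cDC1 lineage. The 10 included 5 regions that cDC1 already had in 6 of 6 libraries and cDC2 in none, and that all migDC1 and all migDC2 libraries had: chr13:45693291-45694223 and chr13:45719554-45720217 in Atxn1, chr2:124704183-124705331 and chr2:124710824-124711691 near Sema6d, and chr2:146415922-146416941 in Ralgapa2 (exact permutation p = 0.00216, adjusted p = 0.0373 each). They were thus open in resident cDC1 and gained only in the cDC2 lineage. The reverse held for chr1:62621305-62622312 in Pard3b, called in 4 of 4 migDC1 and 0 of 6 cDC1 libraries and in 6 of 6 migDC2 and 6 of 6 cDC2 libraries (exact permutation p = 0.00216, adjusted p = 0.0373).

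With lists of equal length 11 regions were called in each direction in the 7 genes. Over all 34353 regions then tested, 2429 were higher and 2305 lower (13.8% called), instead of 296 and 3217 of 57067. Only 3 of the 12 regions were then called in the same direction: the Pard3b region just named, the region chr2:146516944-146517249 of resident cDC2 near Ralgapa2, and chr6:134280636-134281131 near Etv6, called in 6 of 6 cDC1 libraries and no other library. Leaving out any of 6 resident libraries (cDC1 Cre-positive replicates 1 to 3, cDC1 Cre-negative 2, cDC2 Cre-negative 2 or cDC2 Cre-positive 3) raised the 12 calls to between 24 and 29. The share of all regions called in these runs is not given here, so nothing is read from this about the 7 genes.

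For the genes as wholes, the score changed more in the cDC1 than in the cDC2 lineage in Ralgapa2 and Atxn1. The share of each gene's own regions called did not rise more in the cDC1 lineage. For Ralgapa2 its mean was 17.9% in cDC1 and 72.3% in migDC1, and 7.74% in cDC2 and 63.7% in migDC2 libraries. For Atxn1 it was 22.1% and 76.4%, and 9.09% and 70.0%. The share of all regions called, which the score subtracts, fell from 62.9% in cDC1 to 56.0% in migDC1. It rose from 49.3% in cDC2 to 65.5% in migDC2. The Ralgapa2 score was 16.3 ± 1.0 in migDC1 and -45.0 ± 3.30 in cDC1, and -1.78 ± 1.21 in migDC2 and -41.6 ± 7.48 in cDC2 libraries (percentage points, SD, n = 4, 6, 6 and 6). The difference of the changes was 21.5 points (exact permutation p = 0.000809, adjusted over 2199 genes 0.0119). At equal list length it was 9.94 points (exact permutation, adjusted p = 0.0194). In Atxn1 the scores were 20.3 ± 6.27 in migDC1 and -40.8 ± 1.87 in cDC1, and 4.53 ± 3.61 in migDC2 and -40.2 ± 3.99 in cDC2 libraries. The difference was 16.4 points (exact permutation p = 0.00294, adjusted p = 0.0269), but at equal list length the adjusted p was 0.0998 and with regions covered by at least 5 libraries 0.0662. This score was added after the data were seen. Of all 2199 genes 15.2% were called, and for the other 5 genes adjusted p-values ran between 0.108 and 0.983.

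Between migratory subsets, regions called mostly in 1 of migDC1 and migDC2 were looked for. Calls in DN migDC and resident libraries were not used, so these regions need not belong to 1 subset or be gained. The Septin9 region chr11:117200470-117201235 had calls in 6 of 6 migDC2 and 1 of 4 migDC1 libraries. It also had calls in 6 of 6 cDC1, 6 of 6 cDC2 and 5 of 6 DN migDC libraries. Of the 367 regions, 14 (3.81%) were called in at least 75% of migDC1 and at most 25% of migDC2 libraries, against 3.52% of all regions, and 34 (9.26%) the reverse, against 7.25%. Atxn1 had 4 of the 14 migDC1 regions and 2 of the 34 migDC2 regions. Rftn1 had 1 and 7, Septin9 2 and 7, Etv6 3 and 6, Pard3b 1 and 7, Sema6d 1 and 4, and Ralgapa2 2 and 1.

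In the exact test with genotype as strata no region of the 7 genes or of the genome was called for migDC1 minus migDC2 (0%), where the smallest p the strata allow is 0.01 and the smallest adjusted p was 0.0594. An unadjusted p under 0.05 was found in 35 of 98 tested regions (35.7%), against 30.5% of all. Without strata 19 regions of the 7 genes were called, 5 higher and 14 lower in migDC1, while over all 20987 tested regions 1184 were higher and 2349 lower. At equal list length 23 were called, 14 higher and 9 lower, and over all 13502 tested regions 2031 were higher and 1507 lower. Both ways of testing called 9 regions of the 7 genes alike, and 1221 regions in all. The 9 include the migDC2 regions chr1:62550302-62551106 and chr1:62551364-62551875 of Pard3b and chr17:50110520-50111441 and chr17:50133895-50135222 of Rftn1. They also include the migDC1 regions chr13:45721705-45722058 of Atxn1, chr1:62198547-62198821 of Pard3b, chr2:124581229-124581719 of Sema6d, chr2:146277288-146277881 of Ralgapa2 and chr6:134222247-134222792 of Etv6. These regions were chosen after their values were seen.

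DN migDC were then set against migDC2. In 4 regions DN migDC libraries had calls in at least 75% and migDC2 in at most 25% (1.09%, against 0.749% of all regions), and in 8 the reverse held (2.18%, against 1.5%). The exact test called no region of the 7 genes and none in the genome (0%), with 6 of 99 tested regions at an unadjusted p under 0.05 (6.06%, against 6.18% of all) and a smallest exact p of 0.005. That p belonged to 2 regions of Sema6d, 1 of them chr2:124296848-124297166, both called in 0 of 6 DN migDC and 6 of 6 migDC2 libraries. Sema6d as a whole had fewer regions called in DN migDC, 22.8 ± 1.94, than in migDC2, 29.3 ± 4.37 (SD, n = 6 each), with ranges that overlapped between 24 and 26. A p above the threshold does not show that the subsets are alike.

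Regions of B cell marker genes had peaks in 33.3% to 79.5% of cases in DN migDC and in 17.9% to 64.1% in migDC2 libraries (6 genes, 39 regions, with no Cd79b call in migDC2). T cell marker regions were called at 67.9% to 89.3% in DN migDC and 60.7% to 78.6% in migDC2 libraries, against 21.4% to 64.3% in cDC2 libraries, and at 57.1% to 67.9% in migDC1 against 32.1% to 50% in cDC1 libraries. Of the T cell genes, Cd3g had no call in migDC2, cDC1 or cDC2 libraries and Bcl11b none in migDC1 libraries. The part of these lists in the values of the 7 genes was not tested. NK cell and ILC marker regions had medians of 75% in migDC1 against 54.5% in cDC1, and 81.8% in migDC2 against 38.6% in cDC2 libraries. The cDC2 marker regions (6 genes) were called at 51.2% to 65.1% in migDC2 against 53.5% to 76.7% in cDC2 libraries, at 31.4% to 43.0% in migDC1 and at 30.2% to 38.4% in germline migDC2 libraries, and of these genes Clec10a had no call in the last 2 groups. Regions of mature migratory DC markers (Ccr7, Fscn1 and others) were called at 52.4% to 71.4% in migDC1 against 30.2% to 47.6% in cDC1, and at 84.1% to 96.8% in migDC2 against 34.9% to 47.6% in cDC2 libraries. cDC1 marker regions were called at 40.1% to 51.9% in migDC1 against 67.9% to 89.5% in cDC1 libraries, and at 28.4% to 38.9% in migDC2 against 17.3% to 34.6% in cDC2 libraries. Relative to the share of all regions called, the cDC1 markers stood at -32.3 percentage points in migDC2 and -23.6 in cDC2 libraries (medians). That share of all regions was 56.0% in migDC1, 62.9% in cDC1, 65.5% in migDC2, 49.3% in cDC2 and 64.0% in DN migDC libraries. Lists held 38571 to 75106 peaks in the floxed cohort. All resident libraries have plain sample titles and all migDC1 libraries lettered ones, so title series and migration cannot be told apart in the cDC1 lineage. In the cDC2 lineage, the 7 genes had 157 gained regions with the plain-titled migDC2 libraries alone and 162 with the lettered ones alone. With both kinds together they had 150. Over all 90465 regions the counts were 14468 with plain, 14848 with lettered and 12540 with both kinds. The count was thus higher with either kind alone for all regions too.

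The 7 genes were chosen for many gained regions, so fewer gains in other genes are not a finding. Relatives and partners of the 7, taken by family, were therefore set beside the shares of all regions. Of 41 such genes, all with regions, 22 had a gained region, and 27 of their 313 regions (8.63%) were gained in the cDC1 lineage and 35 (11.2%) in the cDC2 lineage, both below the shares of all regions. In the same order, 47 and 5 of the 313 were lost. The plexins of the semaphorin family had most: Plxna4 gained 4 of 12 regions in each lineage and Plxna1 2 and 4 of 17, in the cDC1 and cDC2 lineage. Rala and Ralb, the small GTPases that the Ralgapa2 complex acts on, gained 1 and 2 regions in the cDC1 lineage and 3 each in the cDC2 lineage, while Rala lost 6 of its 14 regions and Ralb 1 of 8 in the cDC1 lineage. Ralgapa1, the other catalytic subunit, gained 2 in each. Of the polarity genes Pard3 had most, with 2 of 17 in each lineage. The 11 other septins gained 1 region in the cDC1 lineage and 4 in the cDC2 lineage of 60 in all, the number that Septin9 has alone. Among 10 ETS genes Spi1, the factor PU.1, had 2 gained regions in each lineage and Etv1 and Elf1 had 1 in the cDC1 and 2 in the cDC2 lineage. The Capicua gene Cic, Atxn1l and Rftn2 gained none.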

How the data were processed

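Omni-ATAC-seq peaks from 32 DC libraries were used. Per the submitters' processing notes, Bowtie2, deepTools and Genrich were used and the build is mm10. For versions, settings and any transposase shift, nothing is stated in those notes. The authors deposited 1 narrowPeak list per library, with a peak signal (at least 200) and a −log10 p value per peak. The deposited signal ranked peaks within a list and the deposited −log10 p broke ties. Lists hold no read counts, so depth is unknown: a missing peak may be closed chromatin or lie under the threshold.

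A consensus region was any interval, 100 bp or longer, where peaks from 3 or more libraries coincided, on the autosomes and X. Each was assigned to the protein-coding RefSeq gene body (GRCm38.p6) holding its midpoint, else to the nearest gene within 50 kb. A region entered a test if 3 or more of the compared libraries called it and 3 or more did not (exact conditional or permutation tests, two-sided, Benjamini-Hochberg threshold 0.05). Scripts used Python 3.11.15, numpy 2.4.6, pandas 2.3.3 and scipy 1.17.1 and were tested on simulated data. No 2 libraries were identical (the highest Jaccard overlap of calls was 0.906). The genes and lists were chosen with earlier results of these data known. Up to 4 regions per gene with the largest summed gain, 2 with the largest loss and 3 passing a test were named. Regions given for a difference between migratory subsets were chosen after their values were seen, as were the gene score and the fits without strata.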

Additional observations from a re-analysis of the deposited data

Results flagged for a closer look

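Among 42 sets of libraries (each gene in each subset), 5 held a library apart from the rest of its subset, and chance alone flags about 1 in 20. The lowest migDC2 count of Etv6 was 68 regions, in a Cre-positive library, while the other libraries had 79 to 83. The same Cre-negative migDC1 library, with 45052 peaks, gave the lowest counts of Pard3b (12, others 21 to 22) and Sema6d (19, others 27 to 28). The highest counts of Ralgapa2 were 22 in a Cre-negative DN migDC library (others 18 to 19) and 3 in a Cre-positive cDC2 library (others 2).

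The change on migration differed between lineages by the exact permutation test in 12 regions, given as the cDC1 minus the cDC2 lineage difference in share of libraries called. The difference was -1.0 for the Atxn1 regions starting at 45693291 and 45719554, the Sema6d regions at 124704183 and 124710824, the Ralgapa2 region at 146415922 and the Etv6 region at 134280636. It was 1.0 for the Pard3b region at 62621305 and the Ralgapa2 region at 146516944. It was -1.33 for the Pard3b region at 62447220 and the Septin9 region at 117296817, -1.42 for the Septin9 region at 117316877 and -1.08 for the Sema6d region at 124573866. The gene scores, which subtract the share of all regions called, differed by 16.4 percentage points in Atxn1 and 21.5 in Ralgapa2.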

How the results depend on the processing

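Of 174 recomputed values of 8 results, 158 were the same or stayed within the range allowed. Some of these came from runs in which too few libraries were left for any call, so their 0 calls show nothing. Totals of calls or regions, or the germline median, were compared here and not directions, so a reversal could not be seen. At equal list length cDC2 minus cDC1 counted as the same, although 4 higher and 12 lower regions became 12 higher and 10 lower. At equal list length, calls numbered 23 for migDC1 minus migDC2 (26.2% of all tested regions were called) and 22 for the lineage difference (13.8%). The cDC2 lineage then gained 93 regions and germline migDC2 libraries called 87.3% of gained regions. Without strata, migDC1 minus migDC2 gave 19 calls, where 16.8% of all tested regions were called. A stricter signal threshold gave 8 calls for cDC2 minus cDC1, where 15.1% of all tested regions were called. Regions of at least 2 libraries gave 27 lineage calls and those of at least 5 gave 26. With at least 5 libraries, 10.4% of all 50700 tested regions were called. The causes were not tested. Leaving out 1 library at a time gave 0 to 0 calls for genotype, migDC1 minus migDC2 and DN migDC minus migDC2. For migDC1 minus migDC2 the smallest exact p was 0.01 with all libraries (adjusted p = 0.0594). Leaving out a library raises the smallest p its strata allow, so its 0 calls do not show stability. Runs of this kind gave 16 to 30 calls for cDC2 minus cDC1 and 10 to 29 for the lineage difference. Gained regions numbered 85 to 124 in the cDC1 and 150 to 163 in the cDC2 lineage, and the germline libraries called 46.0% to 50.7%. cDC2 minus cDC1 moved to 25 without cDC1 Cre-negative replicate 2 and 30 without cDC1 Cre-positive replicate 2. The lineage calls moved to 24, 29 and 26 without cDC1 Cre-positive replicates 1, 2 and 3, 28 without cDC1 Cre-negative replicate 2, 26 without cDC2 Cre-negative replicate 2 and 27 without cDC2 Cre-positive replicate 3. Shares of all regions called are not given for the runs that leave out a library. With title numbers as a replicate block, DN migDC minus migDC2 gave 0 calls. For migDC1 minus migDC2 no call was possible, since the smallest exact p that such blocks allow is above 0.05. Correlations of same-numbered libraries were 0.16 or lower, so the numbers were not taken as pairing. With 2 or 3 libraries per genotype and subset, the smallest possible p limits what single regions can show.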
